A study of Mus musculus with 8 samples.

Results

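Pln, Atp2a2, Atp2b4, Itpr1, Ryr2, Ryr3, Casq2, Cacna1c, Cacna1h and Cacnb2 encode proteins that store calcium inside the cell, release it, remove it or let it in through the surface membrane. These 10 genes were chosen by symbol, and each symbol names 1 of the 32285 genes in the deposited count table. The counts come from the ascending thoracic aorta of 3 wild-type mice aged 11, 12 and 13 weeks. The tissue was digested with collagenase and elastase, and single cells were sequenced in droplets with an antibody hashtag for each age. The cells of all mice share 1 matrix, 1 hashtag is read as 1 mouse, and no strain, sex or treatment is given in the sources used here.

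Contraction of arterial smooth muscle is set by calcium in the cytoplasm. Surface channels opened by voltage admit calcium, receptors for inositol trisphosphate and for ryanodine release it from the sarcoplasmic reticulum, and pumps return it to the store or to the outside. Calmodulin carries the signal to myosin light chain kinase. Phospholamban, the product of Pln, holds back the pump of the store until it is phosphorylated, and is best known from heart muscle.

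Of the members tested, Pln and Ryr2 had the largest log2 fold changes of smooth muscle over fibroblast barcodes (3.97 and 3.44), and the stretches just before their starts are shown for that reason. They are the 250 bases upstream of Pln (chr10:53337436-53337685, plus strand) and of Ryr2 (chr13:12106946-12107195, minus strand), from RefSeq on GRCm38.p6, written 5′ to 3′ with E-boxes in capitals. An E-box is CANNTG, searched on both strands, on which it reads alike.
Pln: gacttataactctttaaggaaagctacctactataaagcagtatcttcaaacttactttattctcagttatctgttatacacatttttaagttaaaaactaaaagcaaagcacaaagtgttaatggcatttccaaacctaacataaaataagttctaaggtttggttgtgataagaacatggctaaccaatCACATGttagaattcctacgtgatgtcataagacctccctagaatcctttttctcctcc
Ryr2: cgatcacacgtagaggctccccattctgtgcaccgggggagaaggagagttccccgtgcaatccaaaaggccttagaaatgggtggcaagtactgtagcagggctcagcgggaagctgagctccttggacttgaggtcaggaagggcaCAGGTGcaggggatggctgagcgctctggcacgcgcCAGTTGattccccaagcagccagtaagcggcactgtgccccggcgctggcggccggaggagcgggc
Pln had 1 E-box, 59 bases before its start, and Ryr2 had 2, at 102 and 66 bases before its start. Of all promoter stretches of 250 bases in the RefSeq table, 66.2% held an E-box. No printed stretch held a CArG box, the site named for serum response factor, which 1.47% of all stretches held, or a MEF2 site, which 0.508% held. No motif overlapped another. The table also has stretches for Casq2, Atp2b4, Cacna1c and Cacnb2, and these held no CArG box or MEF2 site either.

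A barcode is 1 droplet and in most cases 1 cell, and its transcripts are counted as unique molecular identifiers, or UMIs. Barcodes were used with at least 500 genes, at most 20% mitochondrial UMIs and fewer than 10 haemoglobin UMIs, which 9939 of 48467 met. A barcode was called SMC (smooth muscle) when Acta2, Tagln and Myh11 made up at least 1.5% of its UMIs, and fibroblast when Dcn made up at least 0.3%. It was called endothelial with at least 3 UMIs of Pecam1, Cdh5 and Gpihbp1 together, and macrophage with at least 3 UMIs of C1qa, C1qb and C1qc together. The rule gave 6722 SMC, 699 endothelial, 1395 fibroblast and 74 macrophage barcodes, all from the same 3 mice. It left 426 barcodes in more than 1 group, which were dropped, and 623 in none. Markers that the rule did not use were highest in the group they name: 5 smooth muscle markers summed to 3974 CPM (UMIs of a gene scaled to a common total per sum) in SMC barcodes against at most 647.6 CPM in the other groups, and 4 endothelial markers summed to 1580 CPM in endothelial barcodes against at most 23.6 CPM in the others.

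Depth and the share of smooth muscle UMIs differed between the groups. The median barcode held 7315.5 UMIs in SMC, 2599 in endothelial, 4531 in fibroblast and 3044.5 in macrophage barcodes. Acta2, Tagln and Myh11 took 3.03% of UMIs in SMC barcodes, and still 0.346% in endothelial, 0.230% in fibroblast and 0.350% in macrophage barcodes. A single hashtag was assigned to 2690 of the 9939 barcodes, and only these entered tests. They made up 20.9% of SMC, 74.8% of endothelial and 20.3% of fibroblast barcodes. SMC barcodes with a single hashtag had 675.8 CPM of Atp2a2 and 39.1 CPM of Pln, and the other SMC barcodes had 696.7 and 40.4 CPM.

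In the fit over 4 groups and 3 mice, 7 of the 10 members passed the filter on low counts, and all 7 were higher in SMC than in endothelial, in fibroblast and in macrophage barcodes. Ryr3, Casq2 and Cacna1h did not pass. Counts were summed per mouse and group and tested with edgeR's quasi-likelihood test. Every adjusted p below, unless another tool is named, is from that test with Benjamini-Hochberg adjustment over all genes. Each SE of a log2 fold change comes from the same test, which shares spread over genes, and is not the spread of 3 values alone. Of 8248 genes tested, 52.4% were called in SMC over endothelial barcodes (28.9% higher and 23.5% lower). Over fibroblast barcodes 40.7% were called (23.5% higher and 17.2% lower), and over macrophage barcodes 39.8% (28.3% higher and 11.5% lower). The median log2 fold change of the 7 members was 2.49 over endothelial, 2.24 over fibroblast and 3.43 over macrophage barcodes, beside 0.087, 0.119 and 0.655 over all genes. The 3 comparisons share the SMC sums, and the members that passed the filter had to be high in some group. For Pln, Ryr2, Cacna1c and Cacnb2 that group was SMC. Pln, for example, had 420 UMIs in the SMC sums, against 14 in endothelial, 4 in fibroblast and 1 in macrophage sums. A higher level in SMC was thus favoured in advance for these members, and the medians of the 7 members share this limit.

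The scaling of the samples affected these values. With the size factors of DESeq2 in place of TMM, the median of all genes moved by -0.144 over fibroblast and by -0.353 over macrophage barcodes. The share of called genes that were higher in SMC became 46.3% in place of 57.7% over fibroblast, and 55.5% in place of 71.0% over macrophage barcodes. All 7 members stayed called in each of the 3 comparisons under that scaling.

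**Figure D1:**
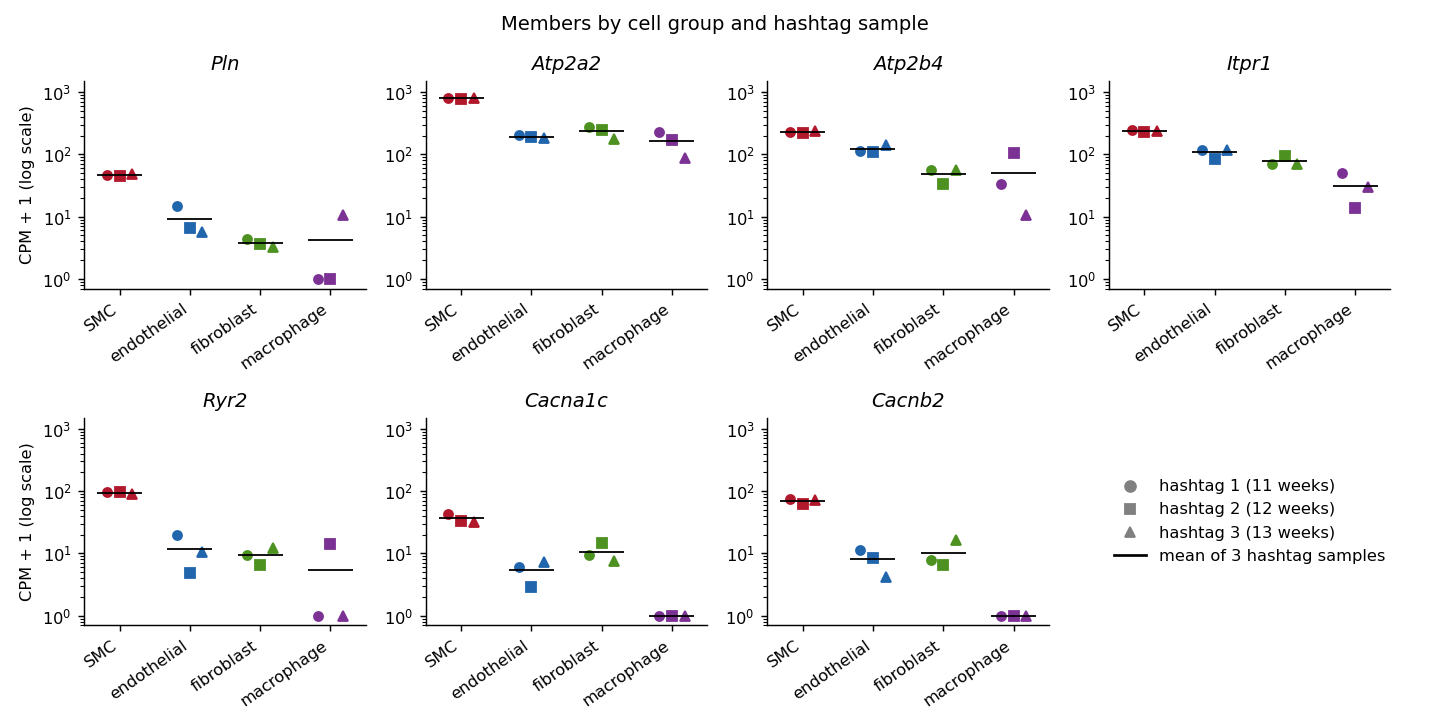
Level of the 7 members that passed the filter, as TMM-scaled CPM + 1 on a log axis, in the 4 cell groups, with 1 point for each of 3 hashtag samples and a line at their mean. For every member the 3 SMC points lie above all points of the other groups.

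Among the pumps, Atp2a2 encodes the main calcium pump of the sarcoplasmic reticulum, SERCA, and lies on chromosome 5 (122453513 to 122502225, GRCm38.p6). It had 806.2, 758.9 and 805.2 CPM in the SMC sums of mice 1, 2 and 3 (11, 12 and 13 weeks). It had 206.1, 190.1 and 180.0 CPM in endothelial, 274.6, 245.3 and 176.7 CPM in fibroblast and 227.7, 168.8 and 86.8 CPM in macrophage sums. SMC stood apart from the rest, and the other 3 groups overlapped. SMC exceeded the others by a log2 fold change of 2.04 ± 0.13 over endothelial (SE, n = 3 mice, edgeR adjusted p = 5.89e-20), 1.77 ± 0.13 over fibroblast (adjusted p = 2.78e-17) and 2.39 ± 0.22 over macrophage barcodes (adjusted p = 2.77e-13). At a common depth of 2000 UMIs, 71.9% of SMC barcodes held an Atp2a2 UMI, against 28.9% of endothelial and 29.95% of fibroblast barcodes. Barcodes with fewer UMIs were left out of these shares, 64 of SMC, 152 of endothelial and 103 of fibroblast barcodes. At full depth, over all barcodes of each group, the shares were 95.8%, 38.8% and 54.1%.

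Pln, the inhibitor of that pump, had the largest log2 fold change over fibroblast barcodes among the 7 members tested. Its SMC sums had 46.1, 44.0 and 47.2 CPM, its endothelial sums 13.7, 5.65 and 4.78 CPM, its fibroblast sums 3.39, 2.70 and 2.21 CPM and its macrophage sums 0, 0 and 9.64 CPM. The 3 SMC values lay close together and the others rested on few molecules, with 420 UMIs in SMC, 14 in endothelial, 4 in fibroblast and 1, from mouse 3, in macrophage sums. As log2 fold changes, SMC exceeded them by 2.49 ± 0.32 over endothelial (edgeR adjusted p = 3.23e-09), 3.97 ± 0.45 over fibroblast (adjusted p = 1.29e-10) and 3.43 ± 0.91 over macrophage barcodes (adjusted p = 0.00207). Without mouse 1 the value over endothelial was 3.11, and without mouse 3, where no macrophage UMI remained, the fitted value over macrophage was 8.53, which depends on the prior count and is no bound. DESeq2 gave 2.98 over macrophage with an adjusted p of 0.0509, so that call was lost there. Pln (chromosome 10, 53337686 to 53345999) overlaps Cep85l in the annotation, and Cep85l ran in another order, with 19.8 CPM in SMC, 93.2 in endothelial and 27.4 in fibroblast barcodes. Whether reads of 1 were counted for the other was not tested.

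Atp2b4 encodes a calcium pump of the surface membrane (chromosome 1, 133702674 to 133801059). It had 230.0, 218.1 and 239.3 CPM in SMC, 111.7, 109.2 and 138.6 CPM in endothelial, 54.2, 32.3 and 55.2 CPM in fibroblast and 32.5, 103.9 and 9.64 CPM in macrophage sums. The order SMC, endothelial, fibroblast held in every mouse without overlap, while the macrophage values ran between 9.64 and 103.9 CPM, up to just under the endothelial ones. The log2 fold change of SMC was 0.93 ± 0.14 over endothelial (edgeR adjusted p = 2.35e-07), 2.24 ± 0.19 over fibroblast (adjusted p = 5.61e-15) and 2.34 ± 0.37 over macrophage barcodes (adjusted p = 6.05e-07). Of 11 macrophage UMIs, 8 came from mouse 2, and the last value was 3.67 without mouse 2 and 1.63 without mouse 3. Endothelial barcodes were themselves higher than fibroblast by 1.31 ± 0.22 (adjusted p = 3.25e-06, in 3 of 3 mice).

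Between endothelial and fibroblast barcodes, 2 of the 7 members were called, both higher in endothelial, where 38.9% of all genes tested were called (20.9% higher and 17.9% lower). The other is Itpr1, described next, and its call was weak. Pln and Ryr2 had log2 fold changes of 1.477 ± 0.76 and 0.37 ± 0.55 (edgeR adjusted p = 0.121 and 0.650). Atp2a2, Cacna1c and Cacnb2 had -0.27 ± 0.15, -0.95 ± 0.65 and -0.40 ± 0.59 (adjusted p = 0.159, 0.263 and 0.648). The standard errors of the less abundant members leave room for differences of either sign.

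Among the release channels, Itpr1 encodes the type 1 receptor for inositol trisphosphate (chromosome 6, 108213083 to 108551116). Its levels were 240.7, 228.0 and 239.9 CPM in SMC, 118.5, 84.7 and 116.3 CPM in endothelial, 69.5, 91.6 and 68.5 CPM in fibroblast and 48.8, 13.0 and 28.9 CPM in macrophage sums. SMC lay above the rest, macrophage below the rest, and endothelial and fibroblast overlapped. The log2 fold change of SMC was 1.14 ± 0.14 over endothelial (edgeR adjusted p = 5.24e-10), 1.65 ± 0.16 over fibroblast (adjusted p = 5.99e-13) and 3.03 ± 0.38 over macrophage barcodes (adjusted p = 4.68e-09). Endothelial exceeded fibroblast by 0.51 ± 0.20 (adjusted p = 0.0332), higher in 2 of 3 mice, and this call was lost in 8 of 12 alternative settings, where the adjusted p ranged up to 0.430.

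The other receptors of the family ran the opposite way. Itpr2 had 6.66, 4.72 and 8.55 CPM in SMC, against 144.3, 88.5 and 148.2 CPM in endothelial and 52.5, 37.7 and 44.2 CPM in fibroblast sums. Its log2 fold change in SMC was -4.23 ± 0.20 over endothelial (edgeR adjusted p = 1.98e-24), -2.74 ± 0.28 over fibroblast (adjusted p = 5.49e-12) and -2.74 ± 0.58 over macrophage barcodes (adjusted p = 0.000126). Itpr3 averaged 1.97 ± 0.239 CPM in SMC, 33.3 ± 11.0 in endothelial and 14.3 ± 1.60 in fibroblast sums (SD, n = 3 mice), with log2 fold changes of -4.02 ± 0.42 and -2.78 ± 0.55 (adjusted p = 9.63e-12 and 3.70e-05). It had no UMI in the macrophage sums. SMC were higher in Itpr1 and lower in Itpr2 and Itpr3 than endothelial and fibroblast barcodes, and these directions were the same with the size factors of DESeq2.

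**Figure D2:**
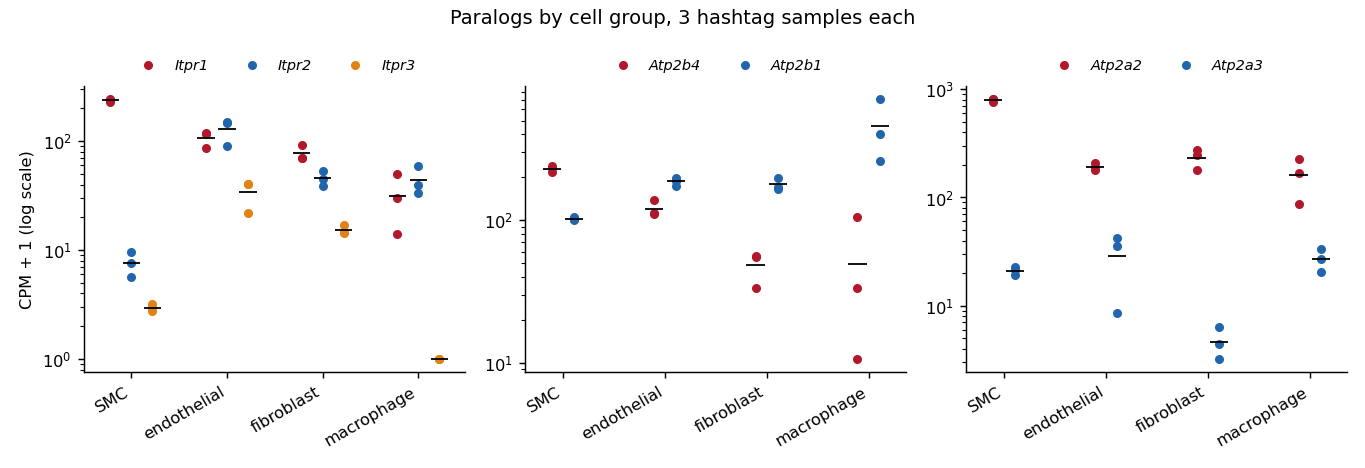
TMM-scaled CPM + 1 on a log axis for Itpr1, Itpr2 and Itpr3 (left), Atp2b4 and Atp2b1 (middle) and Atp2a2 and Atp2a3 (right), with 3 hashtag samples per group as points and lines at their means. Itpr2, Itpr3 and Atp2b1 are lower in SMC than in endothelial and fibroblast samples, and their counterparts Itpr1 and Atp2b4 are higher in SMC.

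Counterparts of the pumps differed too. Atp2b1, another pump of the surface membrane, averaged 101.4 ± 2.78 CPM in SMC, 186.7 ± 12.1 in endothelial, 177.9 ± 16.6 in fibroblast and 455.5 ± 226.6 in macrophage sums. It was lower in SMC by log2 fold changes of -0.88 ± 0.15, -0.80 ± 0.15 and -2.25 ± 0.21 (edgeR adjusted p = 9.79e-07, 2.01e-05 and 2.71e-13). Atp2a3, a store pump known from blood and endothelial cells, averaged 20.04 ± 1.69 CPM in SMC, 27.8 ± 17.9 in endothelial and 3.66 ± 1.61 in fibroblast sums. It was higher in SMC than in fibroblast by 2.46 ± 0.57 (adjusted p = 0.000289), and the difference from endothelial, -0.50 ± 0.30, missed the threshold (adjusted p = 0.163).

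Ryr2 encodes the ryanodine receptor of heart muscle, which also releases store calcium in arteries (chromosome 13, 11553099 to 12106945). Its SMC sums had 94.7, 93.9 and 89.6 CPM, endothelial 18.9, 3.76 and 9.56 CPM, fibroblast 8.48, 5.39 and 11.0 CPM and macrophage 0, 13.0 and 0 CPM. SMC lay far above, and the other 3 groups overlapped on 19, 12 and 1 UMIs, the last from mouse 2. In SMC it was higher by a log2 fold change of 3.07 ± 0.27 over endothelial (edgeR adjusted p = 3.27e-14), 3.44 ± 0.31 over fibroblast (adjusted p = 1.16e-13) and 4.44 ± 0.79 over macrophage barcodes (adjusted p = 8.17e-06). Without mouse 1 the value over endothelial was 3.71, and over macrophage it was 3.68 without mouse 3 and 9.69 without mouse 2, where no macrophage UMI remained and the value is no bound. At 2000 UMIs, again without barcodes that held fewer, 13.8% of SMC barcodes held a Ryr2 UMI, against 1.65% of endothelial and 1.24% of fibroblast barcodes. At full depth, over all barcodes of each group, these were 40.6%, 3.43% and 3.08%.

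Ryr3 and Casq2 were close to absent. Ryr3, another ryanodine receptor (chromosome 2, 112631354 to 113217405), had 6 UMIs among the 49861013 of SMC barcodes, or 0.120 CPM (exact Poisson 95% interval 0.0442 to 0.262). Casq2, the calcium-binding protein of the store in heart muscle (chromosome 3, 102086415 to 102146514), had 33 UMIs in SMC, or 0.662 CPM (0.456 to 0.929). It had 1 UMI or 0.411 CPM in endothelial and 2 UMIs or 0.296 CPM in fibroblast barcodes. These intervals cover counting error only. Fitted without the filter, neither was called in any comparison (lowest edgeR adjusted p 0.833 for Ryr3, in SMC over endothelial, and 0.765 for Casq2, in SMC over fibroblast). Casq1, the skeletal muscle counterpart of Casq2, had 577 UMIs in SMC, or 11.6 CPM, against 5 in endothelial and 10 in fibroblast barcodes. Ryr1, the skeletal muscle ryanodine receptor, had 2 UMIs in SMC barcodes.

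Among the entry channels, Cacna1c encodes the pore of the L-type calcium channel, through which voltage opens the path for calcium into arterial muscle (chromosome 6, 118587240 to 119197384, overlapping Dcp1b). It had 42.6, 32.6 and 30.7 CPM in SMC, 5.15, 1.88 and 6.37 CPM in endothelial, 8.48, 13.5 and 6.63 CPM in fibroblast and 0 CPM in all macrophage sums. SMC did not overlap the other groups, and endothelial and fibroblast did not overlap each other, though they did not differ past the threshold. The log2 fold change of SMC was 2.91 ± 0.39 over endothelial (edgeR adjusted p = 1.28e-08) and 1.95 ± 0.36 over fibroblast (adjusted p = 1.05e-05). With another way of calling hashtags the value over fibroblast was 1.65 and missed the threshold (adjusted p = 0.0705).

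Cacnb2 encodes a beta subunit that brings the channel to the membrane and tunes it (chromosome 2, 14603861 to 14988811). It had 73.6, 60.9 and 70.0 CPM in SMC, 10.3, 7.53 and 3.19 CPM in endothelial, 6.78, 5.39 and 15.5 CPM in fibroblast and 0 CPM in all macrophage sums. The lower groups overlapped and SMC stood above. On the log2 scale SMC exceeded by 3.29 ± 0.31 over endothelial (edgeR adjusted p = 6.44e-13) and 2.89 ± 0.32 over fibroblast (adjusted p = 6.56e-11). Against a floor of 3 UMIs over the 3 macrophage sums, Cacna1c was at least 2.85-fold and Cacnb2 at least 5.50-fold higher in SMC.

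Cacna1h, the pore of a T-type channel that opens at lower voltage (chromosome 17, 25374285 to 25436334), was rare. It had 57 UMIs in SMC barcodes, or 1.14 CPM (exact Poisson 95% interval 0.866 to 1.481), 0 in endothelial and 2 UMIs or 0.296 CPM in fibroblast barcodes. A count of 0 allows up to 1.23 CPM, or 3 UMIs, in endothelial barcodes, so no difference from SMC was detectable at this depth. Cacna1g, another T-type pore, had 16 UMIs or 0.321 CPM in SMC and 58 UMIs or 8.58 CPM in fibroblast barcodes. Few of the fibroblast UMIs could be assigned to a mouse, with 0, 5 and 2 in the sums of mice 1, 2 and 3. Cacna1d, another L-type pore, was higher in SMC than in endothelial and fibroblast barcodes, with 26.8 ± 3.49 CPM in SMC, 5.66 ± 4.28 in endothelial and 6.09 ± 2.12 in fibroblast sums (log2 fold change 2.20 ± 0.40 and 2.09 ± 0.42, edgeR adjusted p = 6.02e-06 and 5.15e-05). Over macrophage barcodes its value of 1.65 ± 0.87 missed the threshold (adjusted p = 0.126).

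**Figure D3:**
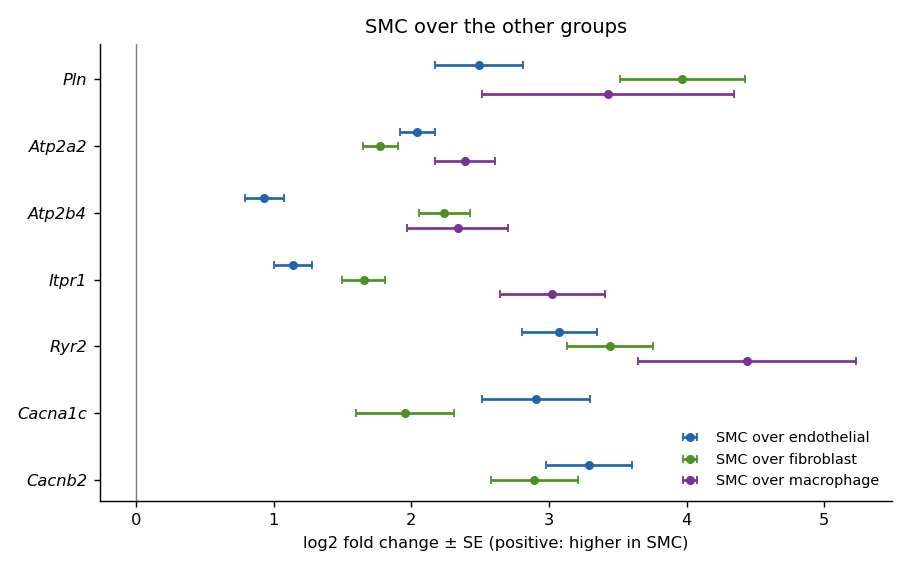
Log2 fold change of SMC over endothelial, fibroblast and macrophage barcodes for each member that passed the filter, with bars of 1 SE. All values are above 0, and Cacna1c and Cacnb2 are not drawn over macrophage barcodes, since both had 0 UMIs in the 3 macrophage sums.

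The smooth muscle UMIs in other groups were set beside the members, since RNA from 1 source would keep its genes in 1 ratio. Whether these UMIs were free RNA, came from droplets with more than 1 cell or were the cells' own was not tested. At the ratio that SMC barcodes had to Acta2, Tagln and Myh11, endothelial barcodes would hold 11.2 Pln and 22.5 Ryr2 UMIs, and they held 19 and 32. Fibroblast barcodes would hold 20.6 Pln and 41.5 Ryr2 UMIs, and they held 23 and 50. Observed over expected was 1.70 (exact Poisson 95% interval 1.02 to 2.66) and 1.12 (0.707 to 1.67) for Pln, and 1.42 (0.973 to 2.01) and 1.205 (0.894 to 1.59) for Ryr2. The Pln and Ryr2 counts of fibroblast barcodes, and the Ryr2 count of endothelial barcodes, were within counting error of that ratio, and the Pln count of endothelial barcodes was just above it. Barcodes under 500 genes, read as a level of free RNA, did not keep the ratio for every member. They stood at 1.37 (1.01 to 1.81) for Pln and 0.588 (0.397 to 0.840) for Cacnb2, and the intervals of the other tested members included 1. The endothelial Pln value of 1.70 lay inside the Pln interval of those barcodes.

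The other members divided between the groups. Endothelial barcodes also held Cacna1c and Cacnb2 at the ratio within counting error, with 11 and 13 UMIs beside 8.22 and 15.9. Fibroblast barcodes held more of both, with 70 Cacna1c UMIs beside 15.2 (ratio 4.61, 3.596 to 5.83) and 58 Cacnb2 UMIs beside 29.3 (1.98, 1.503 to 2.56). Atp2a2, Atp2b4 and Itpr1 exceeded the ratio in both groups. In endothelial barcodes they were at 2.49, 5.31 and 4.43 times it, and in fibroblast barcodes at 3.90, 3.35 and 4.56 times it.

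The limits on smooth muscle UMIs moved the folds. Over endothelial barcodes with under 0.5% smooth muscle UMIs, the log2 fold changes of SMC were 4.15 for Ryr2, 3.72 for Cacna1c and 4.37 for Cacnb2, and over such fibroblast barcodes 4.24 for Ryr2. With SMC set at 3% of UMIs in place of 1.5%, barcodes below that limit could enter the other groups, and the values over endothelial were 1.44 for Pln, 1.28 for Atp2a2, 1.58 for Ryr2, 1.52 for Cacna1c and 1.64 for Cacnb2. Over fibroblast they were 3.22 for Pln and 2.69 for Ryr2. All 7 members stayed called over each group under both limits.

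**Figure D4:**
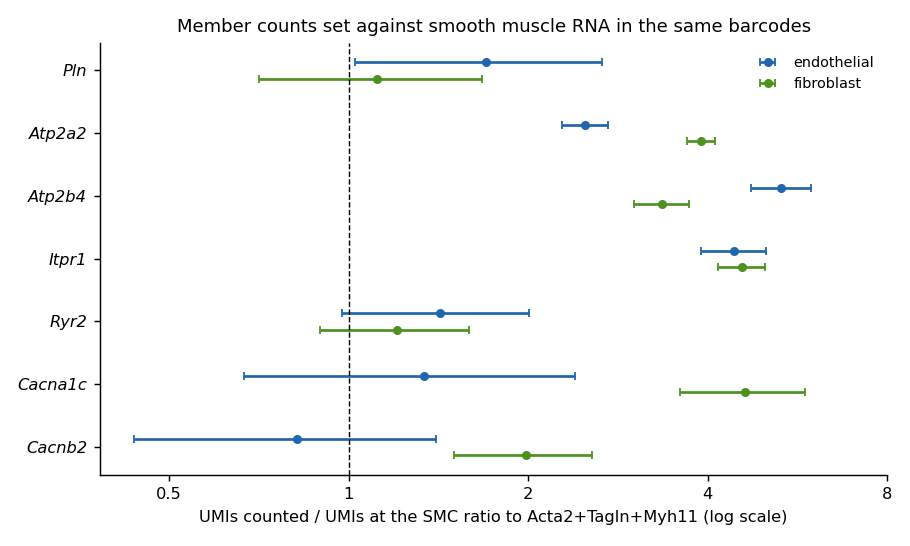
UMIs of the 7 members that passed the filter in endothelial and fibroblast barcodes, divided by the number at the SMC ratio to Acta2, Tagln and Myh11, on a log axis with exact Poisson 95% intervals that cover counting error only. Pln and Ryr2 in fibroblasts, and Ryr2, Cacna1c and Cacnb2 in endothelial barcodes, have intervals that include 1, and the other values lie above 1. SMC barcodes were chosen for a high share of Acta2, Tagln and Myh11, which favours values above 1.

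Markers of other cell types were summed in each group. The 8 cardiomyocyte markers summed to 8.14 CPM in SMC (5.44 to 10.8 over the mice), 6.57 in endothelial and 49.5 CPM in fibroblast barcodes (33.9 to 325.5 over the mice). Of the fibroblast UMIs, 309 of 335 were Myl7, and 2 of the 8 markers were at 0. Brown adipocyte markers summed to 7.92 CPM in SMC, 74.3 in endothelial and 5.77 CPM in fibroblast barcodes. Schwann cell and skeletal muscle markers summed to 5.01 and 3.55 CPM in SMC barcodes. The 5 pericyte markers, several of which arterial smooth muscle also expresses, had their largest sum in SMC of the 4 groups. They summed to 642.0 CPM in SMC, 261.6 in endothelial and 442.3 CPM in fibroblast barcodes, with none of them at 0. Rgs5 gave 21063 of the 32009 UMIs in SMC, and only Rgs5 and Notch3 were each highest there. Kcnj8 (46.9 against 24.5 CPM) and Abcc9 (311.3 against 176.3 CPM) were higher in fibroblast than in SMC barcodes. Higd1b was higher in endothelial than in SMC barcodes (1.64 against 0.983 CPM). Without barcodes that held over 5 UMIs of the cardiomyocyte, brown adipocyte or pericyte markers, all 7 members stayed higher in SMC over each group, with Cacnb2 at 4.03 over fibroblast and Pln at 3.84.

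The wider calcium machinery was read from 4 lists. Of 16 genes that act on calcium in contraction and relaxation, 15 were tested. Over endothelial barcodes 13 were higher in SMC and 2 lower, over fibroblast 14 were higher and 0 lower, and over macrophage 13 were higher and 1 lower. With the size factors of DESeq2 these counts were 13 and 2, 12 and 0, and 11 and 1. Of all genes tested, 28.9%, 23.5% and 28.3% were higher in SMC over endothelial, fibroblast and macrophage barcodes. Mylk, the myosin light chain kinase, averaged 1866 ± 72.9 CPM in SMC and 180.0 ± 21.6 CPM in fibroblast sums (log2 fold change 3.38 ± 0.14, edgeR adjusted p = 7.96e-27). Kcnmb1, the beta subunit of the calcium-activated potassium channel, averaged 276.6 ± 6.24 CPM in SMC and 27.8 ± 6.83 CPM in endothelial sums (3.32 ± 0.18, adjusted p = 3.94e-22). Ppp1r14a, an inhibitor of myosin phosphatase, averaged 1048 ± 18.6 CPM in SMC and 131.0 ± 20.7 CPM in endothelial sums (2.99 ± 0.14, adjusted p = 5.43e-25).

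Release partners were mixed. Of 16 listed besides the members, 8 were tested. Of these, 4 were higher in SMC and 3 lower over endothelial, 5 higher and 2 lower over fibroblast, and 5 higher and 1 lower over macrophage barcodes. Of all genes, 28.9% were higher and 23.5% lower over endothelial, 23.5% and 17.2% over fibroblast, and 28.3% and 11.5% over macrophage barcodes. Fkbp1a lost its call over macrophage with the size factors of DESeq2 (adjusted p = 0.136) and over fibroblast in DESeq2 itself (0.0655). Mrvi1, which couples the inositol trisphosphate receptor to cGMP-dependent kinase, averaged 413.3 ± 4.85 CPM in SMC, 62.2 ± 9.15 in endothelial and 42.6 ± 10.7 CPM in fibroblast sums. Its log2 fold changes were 2.73 ± 0.15 and 3.25 ± 0.17 (edgeR adjusted p = 2.13e-22 and 5.73e-23). Jph2, which holds the store close to the surface membrane, averaged 167.0 ± 9.36 CPM in SMC and 16.7 ± 7.51 CPM in fibroblast sums (3.26 ± 0.24, adjusted p = 5.80e-17). The genes lower in SMC were Itpr2 and Itpr3 over both endothelial and fibroblast barcodes, Fkbp1a over endothelial and Itpr2 over macrophage barcodes.

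Pumps and buffers were called in both directions. Of 18 listed, 8 were tested. Of these, 2 were higher and 5 lower in SMC over fibroblast, 2 higher and 2 lower over endothelial, and 2 higher and 3 lower over macrophage barcodes. The share higher over fibroblast was thus near the 23.5% of all genes, and 17.2% of all genes were lower. Over endothelial barcodes 28.9% of all genes were higher and 23.5% lower, and over macrophage barcodes 28.3% and 11.5%. With the size factors of DESeq2 the count over macrophage was 1 higher and 4 lower, Slc8a1 being lost (adjusted p = 0.0808). Slc8a1, the sodium-calcium exchanger, averaged 123.8 ± 7.62 CPM in SMC, 26.2 ± 8.94 in endothelial and 43.7 ± 4.12 CPM in fibroblast sums (2.22 ± 0.20 and 1.52 ± 0.20, edgeR adjusted p = 1.28e-13 and 3.91e-09). Of 22 entry channels and sensors listed, 8 were tested. Of these, 3 were higher and 3 lower over endothelial, 2 higher and 1 lower over fibroblast, and 2 higher and 1 lower over macrophage barcodes. The shares of all genes are those given for the pumps, and the counts over fibroblast and macrophage barcodes were near them. With the size factors of DESeq2 the balance turned, to 2 higher and 3 lower over fibroblast and 1 higher and 2 lower over macrophage barcodes. Cacna2d1, an accessory subunit of the L-type channel, averaged 165.1 ± 16.0 CPM in SMC and 28.8 ± 3.61 CPM in endothelial sums (2.52 ± 0.20, adjusted p = 6.29e-16). Stim2, a sensor of store calcium, averaged 17.9 ± 2.26 CPM in SMC and 85.7 ± 10.7 CPM in endothelial sums (-2.27 ± 0.21, adjusted p = 1.13e-13).

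Among SMC barcodes, Pln varied more than the other members. After thinning each of 6658 SMC barcodes to 2000 UMIs, the variance of Pln counts was 1.29 times their mean, where counting alone gives a ratio of 1. The ratio was 1.18 for Atp2a2, 1.07 for Atp2b4, 1.06 for Ryr2, 1.03 for Itpr1, 1.02 for Cacnb2 and 1.00 for Cacna1c. These are descriptions over barcodes, which are not replicates.

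SMC barcodes were also split at the median share of Tnnt2 and Ptprz1, a pair of genes already known to vary among these cells, into those above 0.0277% of UMIs (high) and the rest (low). Forms of SMC high in Tnnt2 and Ptprz1, and high in Pln and Mgp, were known from earlier results of these same data. The Pln and Mgp differences given below are therefore not independent of those results. The split is a range and not a pair of cell types, and 922 SMC barcodes (13.7%) lay between 0.8 and 1.25 times the median. The cut falls at few UMIs per barcode, since the median SMC barcode held 7315.5 UMIs in all. Counting error can therefore place further barcodes on either side of the cut. Of 7 members tested, Pln alone was called, lower in the high barcodes, where 1.12% of 9439 genes were called (0.646% higher and 0.477% lower). Pln had 30.8, 35.2 and 31.9 CPM in the high and 48.4, 40.9 and 50.1 CPM in the low sums of mice 1, 2 and 3. All high values lay below all low values, and the log2 fold change was -0.53 ± 0.14 (edgeR adjusted p = 0.0384). The call was lost when any 1 mouse was left out (adjusted p = 0.429, 0.0849 and 0.364, with log2 fold changes of -0.46, -0.64 and -0.47), and over 10 alternatives the adjusted p ranged between 0.00502 and 0.965. DESeq2 gave Pln no adjusted p there.

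In 3 bins of equal size, from the lowest share to the highest, Pln had 54.9 CPM (exact Poisson 95% interval 51.3 to 58.7), 34.0 (31.2 to 36.9) and 32.9 CPM (30.3 to 35.7) over all SMC barcodes. The lowest bin stood apart beyond counting error, and the intervals of the other two overlapped. Ryr2 ran the same way in smaller steps, at 86.8, 80.1 and 76.3 CPM with overlapping intervals of neighbouring bins. It had 75.2, 80.0 and 70.2 CPM in the high and 86.4, 81.0 and 83.7 CPM in the low sums of the 3 mice (log2 fold change -0.17 ± 0.10, edgeR adjusted p = 0.685). Casq2 had 24, 4 and 5 UMIs in the 3 bins, at 1.53, 0.239 and 0.286 CPM. Atp2a2 had 706.2, 685.6 and 685.9 CPM. The log2 fold changes of Atp2a2, Atp2b4, Itpr1, Cacna1c and Cacnb2 between high and low were 0.01, -0.0054, -0.04, 0.06 and 0.13, each with an adjusted p of at least 0.851. Smooth muscle markers summed to 34918, 34728 and 36144 CPM in the high and 32522, 31131 and 31815 CPM in the low sums. Pericyte markers summed to 589.4, 560.7 and 654.9 CPM in the high and 547.9, 610.4 and 674.7 CPM in the low sums, and to 743.2, 621.6 and 570.8 CPM over the 3 bins. Mgp, a matrix protein of arterial smooth muscle, had 10534, 9936 and 8017 CPM in the high and 12316, 14577 and 10970 CPM in the low sums, lower in the high barcodes in 3 of 3 mice as Pln was, and 13359, 10990 and 9581 CPM over the 3 bins. The part of these markers in the Pln result was not tested.

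**Figure D5:**
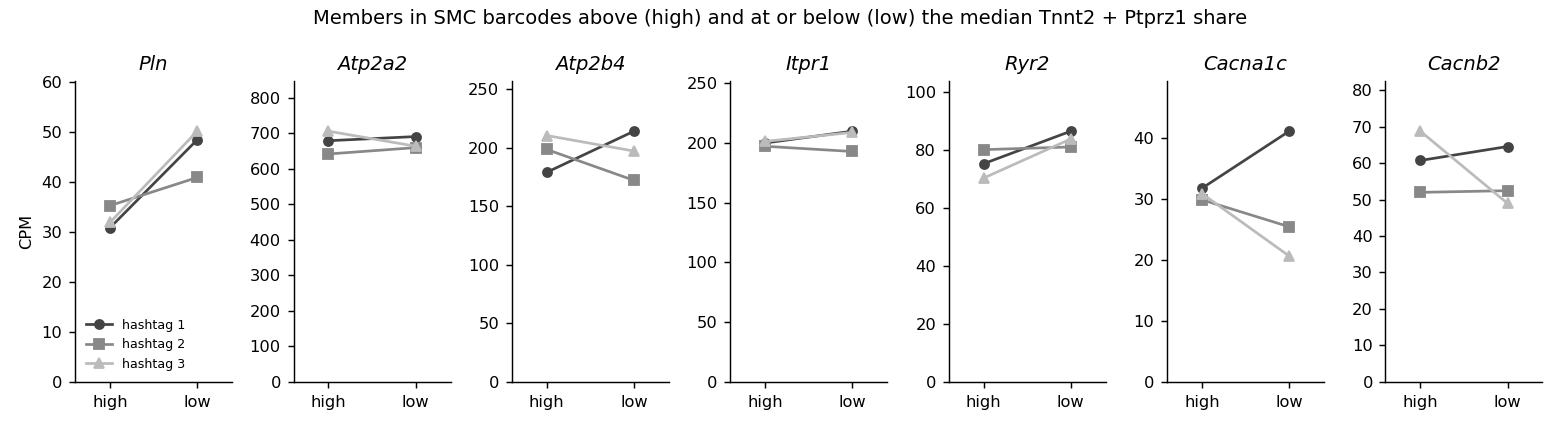
TMM-scaled CPM of each member in SMC barcodes above (high) and at or below (low) the median Tnnt2 and Ptprz1 share, 1 line per mouse (hashtag), on axes that start at 0. The Pln lines lie between 30.8 and 35.2 CPM in the high and between 40.9 and 50.1 CPM in the low barcodes, the Ryr2 lines are lower in high barcodes in all 3 mice, and the lines of the other 5 members run in mixed directions.

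The genes whose levels ran most like each member over the 12 sums of mouse and group were looked up among 3917 genes. For Atp2a2 these were Dmpk, Cald1 and Dact3 (Pearson r of log2 CPM 0.988, 0.978 and 0.976), and for Ryr2 they were Cspg4, E030013I19Rik and Lpp (0.985, 0.984 and 0.983). For Pln they were Ndufa12, Wwp2 and Rgs4 (0.975, 0.967 and 0.957), and for Itpr1 Peli2, Pawr and Nbeal1 (0.9897, 0.977 and 0.977). Atp2b4 ran most like Ptpn11, Eif4ebp2 and Nol7 (0.974, 0.957 and 0.952), Cacna1c like Svil, AI838599 and Tub (0.978, 0.975 and 0.969), and Cacnb2 like Anln, Tub and Itga7 (0.981, 0.979 and 0.978). The 12 sums come from 4 groups of the same 3 mice and share their libraries, so these correlations describe the difference between groups.

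With 1 mouse at each age, no difference between ages can be told apart from a difference between mice. Within SMC, and relative to its mean, the spread over the 3 mice was widest for Cacna1c among the 7 members, with a mean of 35.3 ± 6.38 CPM, and narrowest for Ryr2 with 92.7 ± 2.77 CPM, followed by Itpr1 with 236.2 ± 7.15 CPM (SD, n = 3).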

How the data were processed

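The authors deposited raw UMI counts, with genes and hashtags in 1 matrix. Its header names Cell Ranger 6.0.1. Per the submitters' processing notes, the build was mm10 and the tools included Seurat 4.0.5. Annotation and strand use were not given in any source used. The match of hashtag to age is from the deposited hashtag reference. The 48467 barcodes are all different, and those used held a median of 6592 UMIs. No doublet caller was run. Barcodes of 2 groups were dropped, and barcodes with several hashtags stayed out of tests.

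Hashtags were called with HTODemux (Seurat 5.3.0, centred log ratio per hashtag, positive quantile 0.99). Of the 2690 barcodes with a single hashtag, another caller, on hashtag ratios, gave the same hashtag to 1001, a different one to 0 and none to the rest. Counts were summed per mouse and group, with at least 10 barcodes per sum, and fitted together with edgeR 4.0.16 (R 4.3.3, TMM, filterByExpr) with the mouse as a block. The groups come from the same mice, and same-mouse sums deviated together only weakly (r between -0.037 and 0.139). P-values were adjusted over all genes and called at 0.05. Rule markers, and Tnnt2 and Ptprz1 in the split, were left out of the tested genes. Per-mouse levels are TMM-scaled CPM, which in SMC run above the CPM of total UMIs used for pooled levels. The fits were also run on counts simulated from a profile common to all groups. That run could not check the scaling between groups as unlike as these.

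The members and lists were chosen with earlier results of these data known. All members are named, with up to 3 genes per list and comparison by largest fold change among those called in the same direction in every mouse, a set of paralogs, and the 3 genes most alike for each member. The text gives part of that set. Casq1 was added after its values were seen. Alternatives were DESeq2 1.42.0, its size factors, no filter, no block, each mouse left out, other barcode and hashtag rules, and the highest against the lowest of 3 bins in the split. The removal of barcodes with other markers, the levels by bin, and the MEF2 and E-box searches were chosen after seeing the data. The hashtag samples may differ technically as well as by mouse. The edgeR p-values rest on the spread between them after that spread is shared over all genes and groups. The SE of an edgeR log2 fold change was derived from the test statistic. It can be smaller than the spread of a gene's own values over the mice.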

Additional observations from a re-analysis of the deposited data

Results flagged for a closer look

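Casq2, Ryr3 and Cacna1h, the members too rare to test, each had UMIs in the 623 barcodes that met none of the group definitions. Casq2 had 20 UMIs there, or 6.60 CPM (exact Poisson 95% interval 4.03 to 10.2), against 0.662 CPM in SMC barcodes. They lay in 12 barcodes, with up to 6 in 1 barcode, and 1 of the 12 also held a cardiomyocyte marker. All 12 held a pericyte marker, as did 26 of the 28 SMC barcodes with Casq2, so this count does not set them apart. Of these 12 barcodes, 6 had a single hashtag, from all 3 mice (4, 1 and 1). Ryr3 had 4 UMIs there in 4 barcodes, or 1.32 CPM (0.360 to 3.38), against 0.120 CPM in SMC barcodes. A count of 0 would allow up to 0.9902 CPM, or 3 UMIs, in those barcodes, and the interval of Ryr3 includes that value. These barcodes enter none of the comparisons, and no test between the groups was made.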

How the results depend on the processing

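Over 400 member values under alternatives, 367 kept their direction and side of the threshold. All 7 members kept the direction of SMC over each other group, and calls were lost for Cacna1c over fibroblast with the ratio caller and for Pln over macrophage with DESeq2. Endothelial over fibroblast, Itpr1 lost its call in 8 of 12 alternatives, and Pln (1.78) and Ryr2 (1.12) gained one with SMC set at 3% of UMIs.

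Reversed values were all of uncalled members. Endothelial over fibroblast they were Ryr2 (-0.2952 to 0.6719 with a mouse left out), Cacnb2 (-1.0531 to 0.5318 with a mouse left out), 0.7862 (SMC at 3%) and 0.4088 (without barcodes with other markers), and Atp2a2 0.0034 (ratio caller) and 0.2864 (SMC at 3%). Between Tnnt2 and Ptprz1 high and low barcodes they were, with a mouse left out, Atp2a2 (-0.0315 to 0.0379), Atp2b4 (-0.0787 to 0.1447), Cacna1c (-0.1546 to 0.4191) and Cacnb2 (-0.0594 to 0.2791). The others there were Atp2b4 0.0057 (DESeq2), Cacnb2 -0.3508 (SMC at 3%), Cacna1c -0.0303 and Cacnb2 -0.0064 (highest against lowest of 3 bins), Itpr1 0.0267 (10% mitochondrial UMIs) and Ryr2 0.1191 (ratio caller). The cause was not tested.

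Genes called between high and low barcodes numbered 106, against 22 with DESeq2, 2 with the ratio caller, 29 with SMC at 3% and 49 to 54 with a mouse left out. At 10% mitochondrial UMIs the calls of SMC over endothelial were 2615 in place of 4320, and of endothelial over fibroblast 1872 in place of 3205, with fewer barcodes. The ratio caller gave 1975 for endothelial over fibroblast and 1782 in place of 3359 for SMC over fibroblast. Without the replicate block the counts were 3434 for SMC over fibroblast, 4412 over endothelial, 3305 over macrophage, 3259 for endothelial over fibroblast and 75 between high and low barcodes, and no member's call changed. The fit over macrophage barcodes could not be made at 10% mitochondrial UMIs. Of 120 pooled levels under alternatives, 84 stayed within their counting interval. Depth limits Ryr3, Casq2 and Cacna1h in every group, and all members in macrophage barcodes.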

Other observations

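In barcodes of no group, which held 0.851% smooth muscle UMIs, Cacna1c had 77 UMIs or 25.4 CPM (exact Poisson 95% interval 20.1 to 31.8), and SMC barcodes had 29.6 CPM (28.1 to 31.1). Ryr2 had 44.2 CPM there and 80.9 CPM in SMC barcodes, and Itpr1 had 142.3 and 200.5 CPM. Set against Acta2, Tagln and Myh11 as above, these members stood at 3.06, 1.95 and 2.53 times the SMC ratio in the barcodes of no group. The other 4 tested members stood at 2.40 (Pln), 2.29 (Atp2a2), 1.99 (Atp2b4) and 1.59 (Cacnb2) times it. The barcodes of no group fell below the SMC limit on Acta2, Tagln and Myh11, so values above the SMC ratio were favoured in advance. Pericyte markers summed to 1371 CPM there and to 642.0 CPM in SMC barcodes.

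Some genes of the release and of the pump and buffer lists that did not pass the filter in the fit over 4 groups are given here, chosen after their values were seen. Trdn, a partner of Casq2 in the store of striated muscle, had 140 UMIs or 20.7 CPM in fibroblast barcodes (17.4 to 24.4), against 31 UMIs or 0.622 CPM in SMC barcodes and 0 UMIs in endothelial barcodes. Fkbp1b, which binds the ryanodine receptor in heart, had 79 UMIs or 11.7 CPM in fibroblast barcodes and 93 UMIs or 1.87 CPM in SMC barcodes. Hrc, a calcium-binding protein of the store, had 470 UMIs or 9.43 CPM in SMC barcodes. It had 6 UMIs or 2.46 CPM in endothelial and 2 UMIs or 0.296 CPM in fibroblast barcodes.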
